A study of Rattus norvegicus with 47 samples.

Results

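Col1a1, Col3a1, Fn1, Tnc, Mmp2 and Timp1 are 6 genes whose products build, cut or protect the extracellular matrix. Their transcripts were followed on 47 oligonucleotide arrays of rat brain from a series on brain injury. They were chosen by name: every probe set whose platform annotation gives 1 of these symbols was taken, which gave 18 of the 8799 probe sets on the array, for 6 of the 4736 genes that the annotation names. Total RNA had been extracted with Trizol from ipsilateral or contralateral tissue. The groups were ipsilateral hippocampus at 4 h after injury (7 arrays), contralateral hippocampus at 4 h (9 arrays), ipsilateral cortex at 24 h (8 arrays), contralateral cortex at 24 h (8 arrays), ipsilateral cortex at 4 h (7 arrays) and contralateral cortex at 4 h (8 arrays). The labels abbreviate the hippocampus as HC, which is read here as that region, and all samples carry the same treatment entry, "wait". Strain, age and the kind of injury do not appear in the labels, which also do not separate injured from sham animals within a group. Times are given as after injury, but whether an array comes from an injured or a sham animal is unknown on either side. The reference for each side comparison is therefore the opposite hemisphere of labelled samples and not a group known to be uninjured. The labels do not tie arrays to animals, so each p-value rests on the scatter among arrays of a group, and that scatter may be technical.

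The extracellular matrix of the brain is mostly proteoglycan and hyaluronan, and fibrillar collagens sit mainly in the meninges and around larger vessels. After injury, fibronectin from plasma and from cells enters the tissue, astrocytes can make tenascin-C, and fibroblast-like cells of vessels and meninges can lay down collagen. Matrix metalloproteinases such as gelatinase A cut these proteins, and tissue inhibitors of metalloproteinases bind the proteases and block them.

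Values are array intensities on the linear scale as deposited. For testing they were raised to a floor of 185.8, the 25th percentile of all values, and put on the log2 scale, and a probe set was kept where 7 or more arrays exceeded that floor. Of the 18 member probe sets 17 passed, and the remaining Tnc probe set, U09401_s_at, exceeded the floor on 2 arrays. The median intensity of an array ranged from 615 to 879, and arrays of a group correlated with r of 0.944 to 0.985 over all probe sets. The summed intensity of 5 neuron markers was 92100 to 133595 on every array, so the RNA was of brain. Array 23, numbered among the ipsilateral hippocampal arrays, carries a contralateral label and was kept under it. In bulk tissue, fewer cells of a type and less RNA per cell cannot be told apart. A difference is called where limma's p-value, adjusted by the Benjamini-Hochberg method over 7503 probe sets, is under 0.05. The array numbers of the 24 h samples follow those of the 4 h samples, so time and any order of processing that the numbers follow cannot be told apart.

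The clearest difference among the 6 genes was in Col1a1, whose brightest probe set was higher at 24 h than at 4 h in the cortex of both sides. Timp1, the inhibitor, reached its highest intensities on a subset of ipsilateral arrays, but the differences between sides did not pass the adjusted threshold. In hippocampus at 4 h, 1 probe set each of Tnc and Mmp2 was lower on the ipsilateral side and 1 of Fn1 was higher. None of these 3 calls held with the dim end of each array as a covariate, which itself differed between these sides. In cortex no member probe set was called between sides at either time. The probe sets of a gene often gave different answers, so each result below belongs to a probe set, and levels are compared between groups within a probe set only.

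Col1a1 encodes the main chain of type I collagen, the fibre of scars, meninges and vessel walls, and lies on chromosome 10, at 80380458 to 80397461 of the GRCr8 assembly. On probe set M27207mRNA_s_at, ipsilateral cortex had a lowest, median and highest intensity of 5303, 6600 and 7751 at 24 h, against 2759, 3217 and 3583 at 4 h. Every ipsilateral array at 24 h was above every ipsilateral array at 4 h. The log2 difference was 1.07 (SE 0.14, n = 8 and 7), a 2.09-fold higher level with a limma adjusted p of 4.6e-07.

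The contralateral cortex gave the same picture for this probe set. Intensities were 4165, 6558 and 7423 at 24 h, against 2396, 2992 and 3658 at 4 h. The groups again did not overlap, and the log2 difference was 1.05 (SE 0.14, n = 8 each), or 2.07-fold, with a limma adjusted p of 2.07e-07. Of all probe sets tested, 1.77% on the ipsilateral side and 2.21% on the contralateral side were higher at 24 h without overlap. The side difference itself was small, at 0.12 (SE 0.14) at 24 h and 0.11 (SE 0.14) at 4 h.

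**Figure D1:**
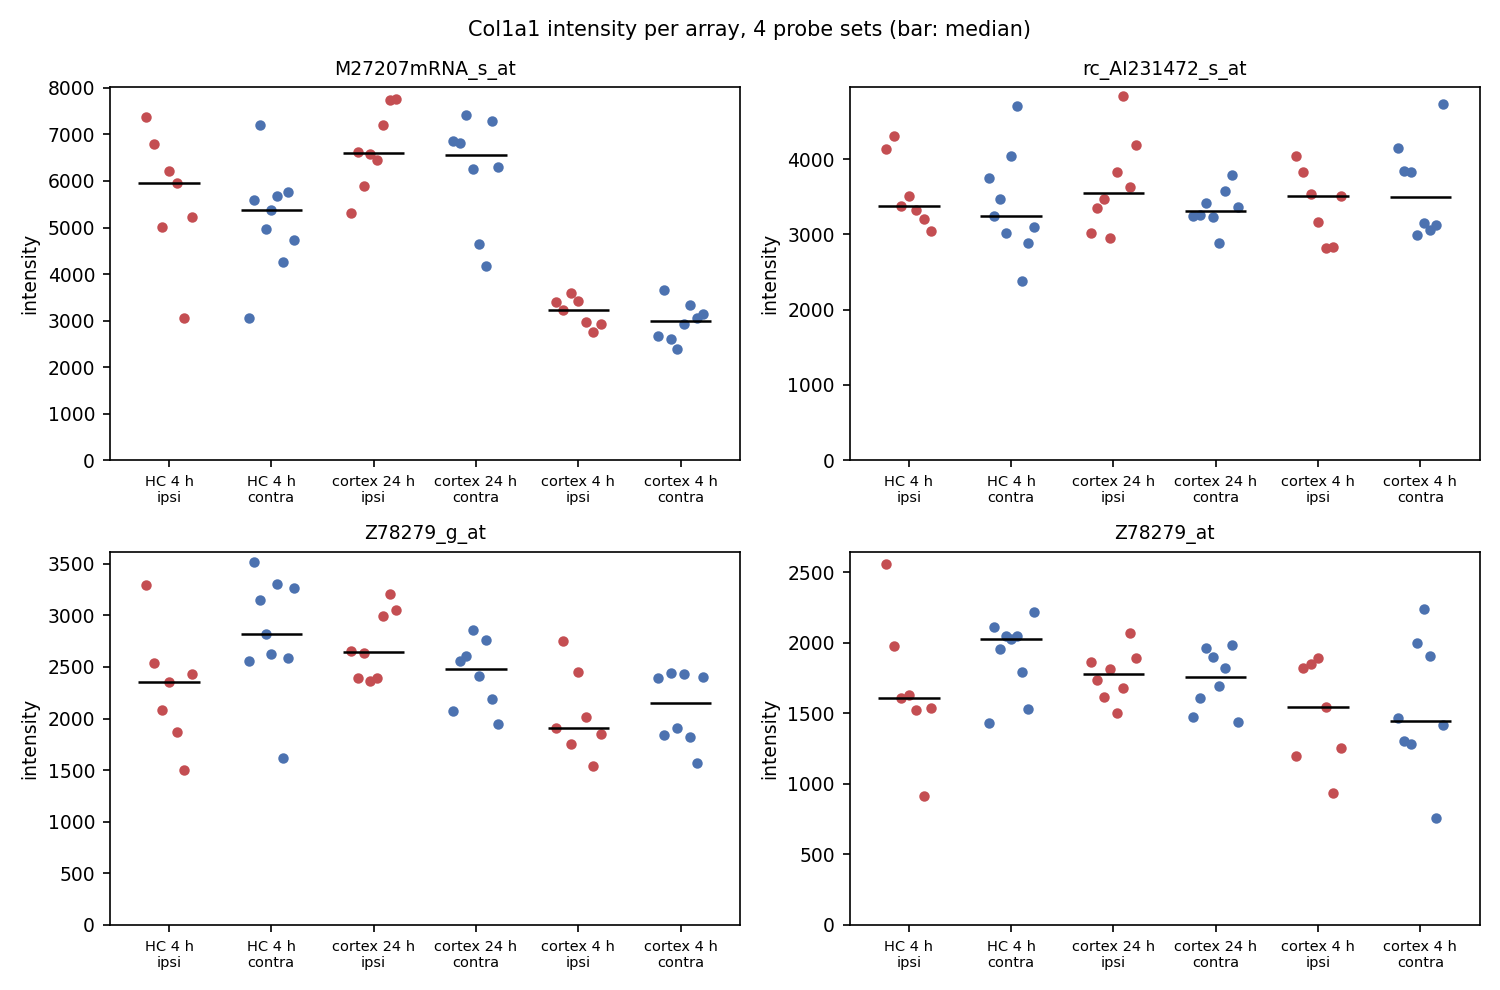
Intensity of the 4 Col1a1 probe sets on each array (1 panel each, linear axes from 0), with ipsilateral arrays in red, contralateral arrays in blue and a bar at each group's median. On M27207mRNA_s_at cortex at 24 h lies wholly above cortex at 4 h on either side and the hippocampal arrays span 3053 to 7379, while on the other 3 probe sets the groups overlap.

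Hippocampus at 4 h lay between the cortical times. Its intensities were 3066, 5956 and 7379 on the ipsilateral side and 3053, 5381 and 7193 on the contralateral side. Against cortex at the same 4 h, hippocampus was 1.73-fold higher on the ipsilateral side (log2 0.79, SE 0.15, limma adjusted p 3.66e-05) and 1.72-fold higher on the contralateral side (log2 0.78, SE 0.13, limma adjusted p 7.91e-06). Fibroblast, mural and meningeal marker sums had medians of 23627 in hippocampus and 17969 in cortex ipsilaterally, and 22639 and 18548 contralaterally. Of the 12 markers 4 were called higher ipsilaterally and 2 contralaterally, none lower, where 16.7% and 22.3% of all probe sets were higher. The median log2 difference of the list was 0.27 ipsilaterally and 0.10 contralaterally, against 0.01 and 0.12 over all genes. Choroid plexus marker sums had medians of 11951 and 7374 ipsilaterally and 45146 and 8890 contralaterally, and the part of these tissues in the region differences was not tested. In the order of mean log2 levels, ipsilateral cortex at 24 h (12.70 ± 0.19), contralateral cortex at 24 h (12.58 ± 0.31), ipsilateral hippocampus (12.42 ± 0.42) and contralateral hippocampus (12.30 ± 0.35) did not differ from their neighbours beyond the SD. A gap of 0.67, larger than either SD, separated them from ipsilateral cortex at 4 h (11.63 ± 0.14), which lay next to contralateral cortex at 4 h (11.52 ± 0.20).

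The other Col1a1 probe sets showed this difference less or not at all. rc_AI231472_s_at had medians of 3549 at 24 h and 3509 at 4 h in ipsilateral cortex and was not called for time on either side, with log2 differences of 0.10 (SE 0.11) ipsilaterally and -0.10 (SE 0.11) contralaterally. Z78279_g_at was higher at 24 h on the ipsilateral side by 0.43 (SE 0.14, limma adjusted p 0.0237), with 2368, 2644 and 3206 at 24 h against 1541, 1911 and 2749 at 4 h. These ranges overlapped, and the call was lost after quantile normalization (adjusted p 0.126) and without array 7 or array 39, where the adjusted p was 0.071 and 0.0535. On the contralateral side it differed by 0.21 (SE 0.14) with no call. Z78279_at differed by 0.28 (SE 0.17) and 0.22 (SE 0.16) on the ipsilateral and contralateral sides, also with no call. Between regions at 4 h, rc_AI231472_s_at differed by 0.07 (SE 0.12) ipsilaterally and -0.09 (SE 0.11) contralaterally, with no call. Z78279_g_at was higher in contralateral hippocampus by 0.42 (SE 0.13, limma adjusted p 0.0116). That call was lost after quantile normalization and by the exact permutation test. Ipsilaterally Z78279_g_at differed by 0.16 (SE 0.14) with no call. Z78279_at gave 0.15 (SE 0.18) ipsilaterally and 0.36 (SE 0.16) contralaterally, also with no call. Over 47 arrays, after subtracting group means, M27207mRNA_s_at correlated with these 3 probe sets at r = 0.32 to 0.39, values given as a description of arrays that share their hybridisation.

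Col3a1 encodes the chain of type III collagen, which runs with type I in vessel walls and granulation tissue, and lies on chromosome 9 at 54866646 to 54902578 (GRCr8). Neither of its 2 probe sets was called in any of the 9 comparisons. X70369_s_at had 1631, 2137 and 2620 in ipsilateral cortex at 24 h, against 1231, 1763 and 2204 on the contralateral side. Arrays 37, 39 and 40 of the ipsilateral group were above every contralateral array, and the others lay within the contralateral range. The log2 difference was 0.33 (SE 0.17, n = 8 each), with a limma adjusted p of 0.655 and a two-sided exact permutation p of 0.0174 before adjustment.

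M21354_s_at, the other Col3a1 probe set, differed by 0.14 (SE 0.18) between sides in cortex at 24 h. In hippocampus it had 844, 1372 and 1917 on the ipsilateral side, against 1218, 1762 and 2169 on the contralateral side. Arrays 19, 20 and 22 lay below every contralateral array, but the log2 difference of -0.38 (SE 0.18, n = 7 and 9) was not called (limma adjusted p 0.145). X70369_s_at gave 0.19 (SE 0.17) there, of the opposite sign. The mean log2 levels of X70369_s_at ran from 11.04 ± 0.20 in ipsilateral cortex at 24 h down to 10.58 ± 0.47 in contralateral hippocampus, and no neighbours in the order of the 6 groups differed beyond their SD.

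Fn1 encodes fibronectin, the glycoprotein that cells grip through integrins and that plasma carries into wounds, and lies on chromosome 9 at 80645507 to 80714200 (GRCr8). Its brightest probe set, X05834_at, had 2866, 5030 and 5791 in ipsilateral cortex at 24 h, against 3050, 3752 and 5041 on the contralateral side. Ipsilateral arrays 37 to 40 lay above every contralateral array and arrays 33 and 34 below every one, so the ipsilateral group was the wider on both ends. The log2 difference was 0.25 (SE 0.14, n = 8 each) and was not called (limma adjusted p 0.754). On probe set U82612cds_at, arrays 37 to 39 were above every contralateral array and array 34 below, with a log2 difference of 0.29 (SE 0.15, limma adjusted p 0.707).

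**Figure D2:**
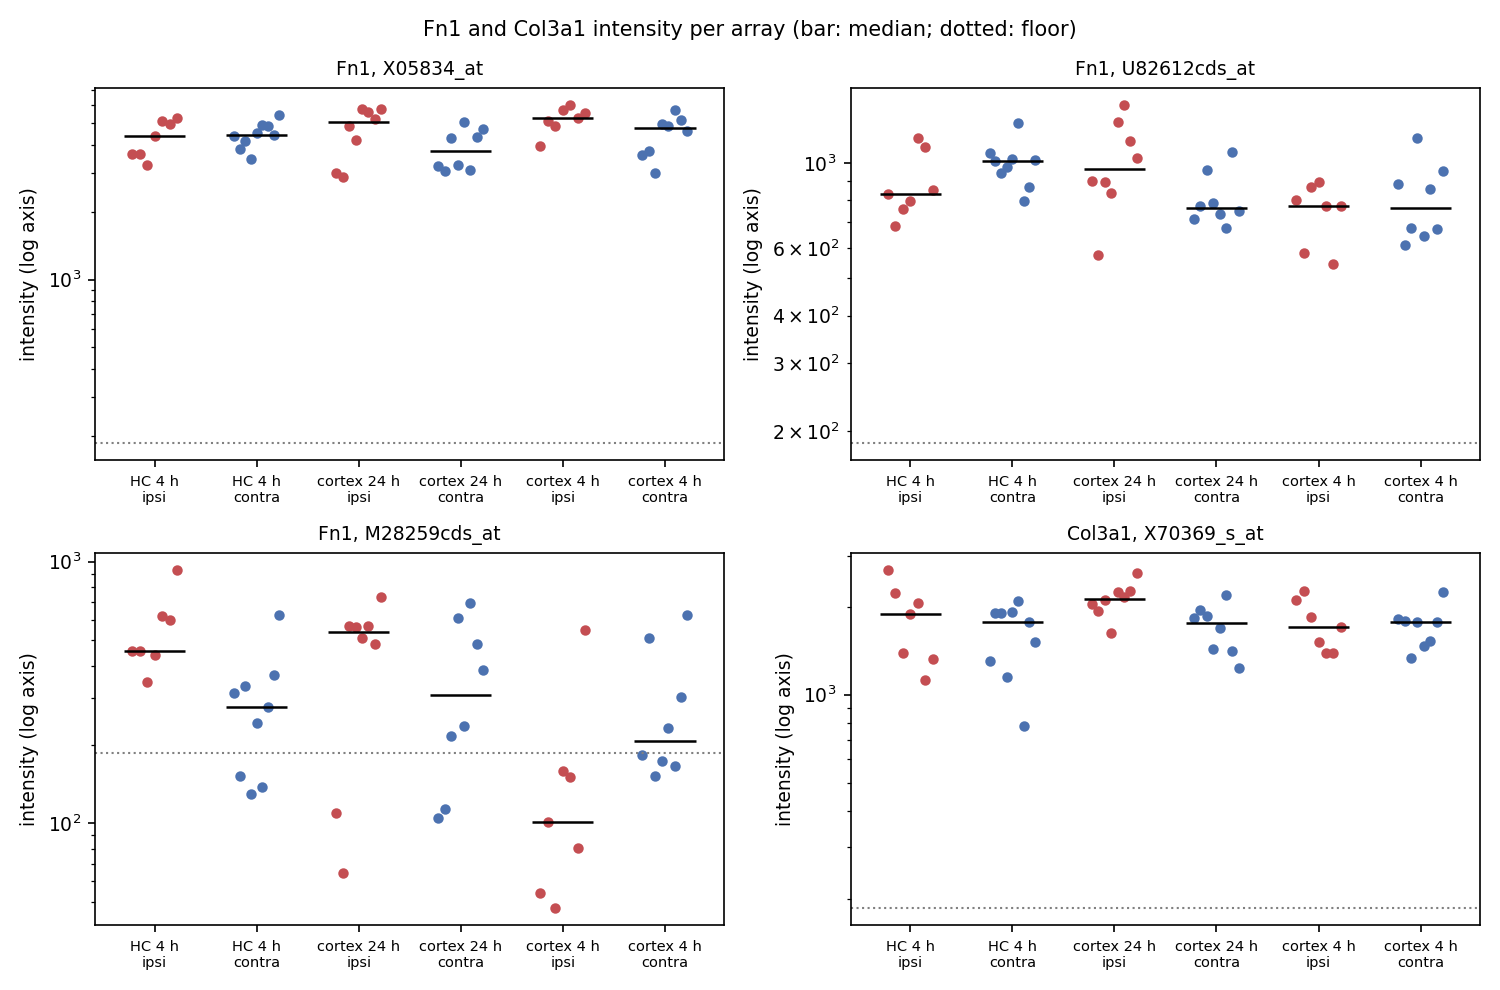
Intensity of 3 Fn1 probe sets and of Col3a1 (X70369_s_at) on each array (log axes), with ipsilateral arrays in red, contralateral arrays in blue, a bar at each group's median and a dotted line at the floor. The sides overlap in every region and time on all 4 panels, and on M28259cds_at the 7 ipsilateral hippocampal arrays lie at 348 or above while many cortical arrays lie under the floor.

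Calls for Fn1 came from its dimmer probe sets. In ipsilateral cortex, U82612cds_g_at had 442, 1032 and 1546 at 24 h, against 209, 521 and 926 at 4 h. At 24 h 6 of 8 arrays lay above every array at 4 h, and the log2 difference was 0.89 (SE 0.27), or 1.85-fold, with a limma adjusted p of 0.0129. M28259cds_at had 65, 537 and 730 at 24 h, against 47, 101 and 547 at 4 h, so most 4 h arrays were under the floor. Its log2 difference was 0.98 (SE 0.33), 1.98-fold after flooring, with a limma adjusted p of 0.0267.

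By the exact permutation test, adjusted over all probe sets, neither Fn1 call for time held, with adjusted p of 0.0995 for U82612cds_g_at and 0.105 for M28259cds_at. Without array 6 the U82612cds_g_at difference was 0.67 (limma adjusted p 0.0615). M28259cds_at lost its call without array 35, 36, 38 or 40, where the difference was 0.92, 0.93, 0.93 and 0.87 and the adjusted p 0.0512, 0.0506, 0.0502 and 0.0644. X05834_at pointed the other way in time, at -0.20 (SE 0.15), with no call. On the contralateral side no Fn1 probe set was called for time, and their log2 differences ran from -0.20 to 0.30.

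In hippocampus at 4 h, M28259cds_at was the 1 member probe set that was higher on the ipsilateral side. It had 348, 455 and 931 there, against 129, 278 and 624 on the contralateral side. The ranges overlapped, with array 24 alone above every contralateral array. On the log2 scale the sides differed by 0.91 (SE 0.32, n = 7 and 9), or 1.87-fold, with a limma adjusted p of 0.0442. The other 4 Fn1 probe sets differed by -0.24 to -0.05 with no call. The M28259cds_at call was lost without any 1 of 9 arrays (18, 20, 21, 22, 24, 25, 27, 28 or 29), where the difference was 0.77 to 0.95. It was also lost with a floor at the 10th percentile (1.04, adjusted p 0.12), with dim probe sets left in (0.91, adjusted p 0.0612) and with the 10th percentile of each array as covariate (0.92, adjusted p 0.40).

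Between regions at 4 h, M28259cds_at was also higher in ipsilateral hippocampus than in ipsilateral cortex, by 1.27 on the log2 scale (SE 0.34, limma adjusted p 0.00327), a difference that depends on the floor because 1 of the 7 cortical arrays exceeded it. The same probe set differed by 0.06 (SE 0.31) between hippocampus and cortex on the contralateral side. There X05831cds_at was higher in hippocampus, by 0.44 (SE 0.16, limma adjusted p 0.0262), with 85, 242 and 464 in hippocampus against 61, 104 and 173 in cortex. All 8 contralateral cortical arrays at 4 h were under the floor for it, so its fold of 1.35 depends on that floor.

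Tnc encodes tenascin-C, a matrix glycoprotein of development and wounds that astrocytes can make, and lies on chromosome 5 at 82391340 to 82476197 (GRCr8). In hippocampus at 4 h, U09361_s_at had 178, 684 and 1332 on the ipsilateral side, against 964, 1506 and 2411 on the contralateral side. Of the 7 ipsilateral arrays 6 lay below every contralateral array, and array 22 was within their range. The log2 difference was -1.34 (SE 0.41, n = 7 and 9), a 2.54-fold lower level with a limma adjusted p of 0.0208. The two-sided exact permutation p was 0.000262 before adjustment and 0.0113 after. The sum over the 4 of 8 listed blood leukocyte markers on the array had medians of 1630 on the ipsilateral and 2479 on the contralateral side. Arrays 17, 18, 19, 20 and 24 were below every contralateral array on it. Of the 4 markers 1 was called lower, where 10.8% of all probe sets were. Lck had a mean log2 level of 10.42, and the other markers, at 7.84 or less, exceeded the floor on 18 or fewer of 47 arrays. By mean log2 deviation over that list, arrays 17 and 24, at -0.10 and 0.06, lay within the contralateral range of -0.15 to 0.61. The part of blood leukocytes in the Tnc and Mmp2 differences was not tested.

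Without array 20 the Tnc difference was -1.07 with a limma adjusted p of 0.0743. The 10th percentile of intensity, a measure of the dim end of an array, was 44 ± 6.9 in ipsilateral hippocampus and 64.8 ± 16 in contralateral hippocampus (SD, n = 7 and 9). With it as a covariate the Tnc difference was -0.35 with a limma adjusted p of 0.832. The covariate itself differed with side, with ranges of 36.4 to 56.7 ipsilaterally and 45.8 to 98.9 contralaterally. That fit therefore cannot fully tell side and the dim end of the arrays apart. U15550_at, which exceeded the floor on 12 of 47 arrays, differed by -0.30 (SE 0.15, limma adjusted p 0.15), and its r with U09361_s_at was 0.09 over 47 arrays.

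**Figure D3:**
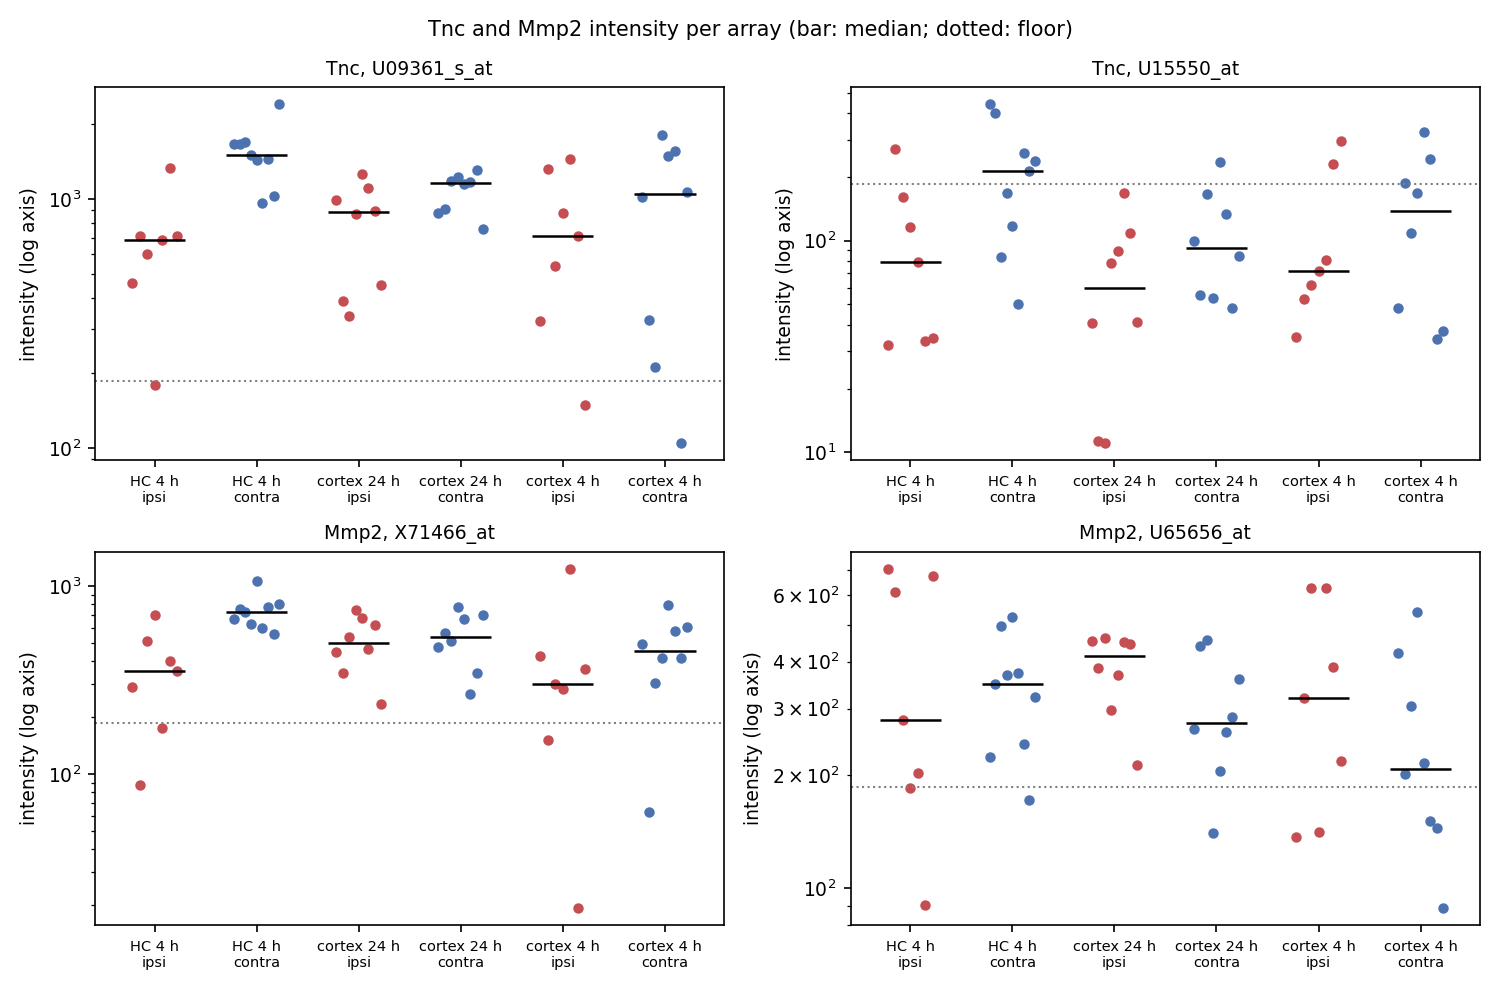
Intensity of 2 Tnc and 2 Mmp2 probe sets on each array (log axes), with ipsilateral arrays in red, contralateral arrays in blue, a bar at each group's median and a dotted line at the floor. In hippocampus 6 of 7 ipsilateral arrays lie below all 9 contralateral arrays on U09361_s_at of Tnc and on X71466_at of Mmp2, while the sides overlap on the second probe set of each gene and in cortex.

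In cortex the sides did not differ by a call for U09361_s_at. At 24 h it had 340, 886 and 1261 on the ipsilateral side, against 756, 1157 and 1303 on the contralateral side, and arrays 34, 35 and 40 were below every contralateral array. This gave -0.57 on the log2 scale (SE 0.40, limma adjusted p 0.832). At 4 h the spread within groups was wide, with 149, 712 and 1448 on the ipsilateral side against 104, 1044 and 1816 on the contralateral side, and the difference was -0.16 (SE 0.42). The difference between sides was not shown to depend on region, since no member was called for side by region.

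Contralateral hippocampus had the highest Tnc level of the 6 groups, at a mean log2 of 10.54 ± 0.40, and stood 0.49 above contralateral cortex at 24 h, more than either SD. All lower neighbours in the order were within their SD. Against contralateral cortex at 4 h the difference was 1.08 (SE 0.39, 2.12-fold, limma adjusted p 0.0285). Only 1 of 9 hippocampal arrays exceeded every cortical array. This call was lost after quantile normalization, with the covariate, with only the compared arrays in the fit and by the exact permutation test. It was also lost without array 10, 11, 15 or 32 (limma adjusted p 0.0548 to 0.107).

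Mmp2 encodes gelatinase A, a metalloproteinase that cuts basement membrane and denatured collagen, and lies on chromosome 19 at 30327643 to 30355856 (GRCr8). In hippocampus at 4 h, X71466_at had 87, 352 and 699 on the ipsilateral side, against 558, 727 and 1060 on the contralateral side. All ipsilateral arrays except array 20 were below every contralateral array. This was a log2 difference of -1.09 (SE 0.30, n = 7 and 9), a 2.13-fold lower level with a limma adjusted p of 0.0123. The two-sided exact permutation p was 0.000612 before adjustment and 0.0148 after. The floor was exceeded on 5 of 7 ipsilateral and 9 of 9 contralateral arrays, so the fold depends on that floor.

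The Mmp2 call held without any single array, with limma adjusted p of 0.00634 to 0.0437. With the 10th percentile of intensity as covariate the difference was -0.67 with an adjusted p of 0.508. The second Mmp2 probe set, U65656_at, did not show it, with 90, 280 and 706 on the ipsilateral side, against 171, 349 and 524 on the contralateral side, and a log2 difference of 0.08 (SE 0.30, limma adjusted p 0.878). Arrays 17, 18 and 24 were above every contralateral array on that probe set. Those same 3 arrays had a summed intensity of 27192 or more over the 13 of 14 listed fibroblast, mural and meningeal markers on the array (Des above the floor on 0 arrays), against a highest contralateral sum of 26907. By mean log2 deviation over that list array 24, at 0.15, lay within the contralateral range of -0.17 to 0.34. Between the sides 2 of the 12 markers tested were called higher and 2 lower, where 5.32% and 10.8% of all probe sets were. The sum over the 6 of 7 listed choroid plexus markers on the array was 64915 to 101398 on arrays 17, 18 and 24, against 6760 to 11951 on the other 4 ipsilateral arrays and 6969 to 96579 on the contralateral ones. The part of these cells in the result was not tested. The r between the Mmp2 probe sets was 0.04 over 47 arrays.

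Elsewhere Mmp2 was not called. On the contralateral side at 4 h, X71466_at was higher in hippocampus than in cortex by 0.72 (SE 0.29, limma adjusted p 0.0525), with 9 of 9 hippocampal arrays above the cortical median. This passed the threshold with only the compared arrays in the fit (adjusted p 0.0265), by the exact permutation test (adjusted p 0.0213) and without array 13, 14, 16 or 31 (adjusted p 0.025 to 0.0472). In ipsilateral cortex it differed by 0.48 (SE 0.31) between 24 h and 4 h, and by 0.79 (adjusted p 0.046) without array 6. X71466_at had 236, 499 and 749 in ipsilateral cortex at 24 h, against 267, 539 and 775 on the contralateral side, a log2 difference of -0.09 (SE 0.30). At 4 h it had 19, 301 and 1236 in ipsilateral cortex, against 63, 453 and 795 in contralateral cortex, a difference of -0.35 (SE 0.31). Array 6 was above every contralateral array and array 7 below every one. The floor was exceeded on 5 of 7 ipsilateral and 7 of 8 contralateral arrays. In the order of group means, ipsilateral hippocampus was lowest at 8.40 ± 0.71 and contralateral hippocampus highest at 9.49 ± 0.28, and no neighbours differed beyond their SD.

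Timp1 encodes a secreted inhibitor that binds metalloproteinases, Mmp2 among its targets, and lies on chromosome X at 3766509 to 3772578 (GRCr8). The 250 bases before its RefSeq start are shown because Timp1 had the widest range among the members, and because in mouse the letters TGAGTAA of this promoter are described as a site for AP-1, the Fos and Jun factor. They lie at chrX:3771123-3771372 on the minus strand of GRCr8, with that match in capitals. RefSeq's record of the gene extends further upstream, so the start used here, that of the promoter table, lies inside the gene's span.
Timp1 promoter: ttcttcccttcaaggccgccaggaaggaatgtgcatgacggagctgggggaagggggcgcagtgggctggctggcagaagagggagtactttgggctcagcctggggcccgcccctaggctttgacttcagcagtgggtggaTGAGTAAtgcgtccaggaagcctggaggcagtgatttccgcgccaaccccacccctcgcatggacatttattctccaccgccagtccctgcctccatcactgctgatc
TGAGTAA occurred 1 time, its first base 108 bases before the start, and on either strand it occurred in 797 of 33469 promoters of the same length (2.38%). The AP-1 consensus TGANTCA had 0 matches here and occurred in 2122 of them (6.34%), and the motifs were chosen after looking at the sequence. A match is a description of letters, and no binding was measured in these samples.

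In cortex at 24 h, rc_AI169327_at had 1496, 3161 and 9569 on the ipsilateral side, against 1242, 1666 and 2843 on the contralateral side. Arrays 37 to 40 had 4012 to 9569, above every contralateral array, while arrays 33 to 36 had 1496 to 2310, within the contralateral range. The log2 difference was 0.80 (SE 0.32, n = 8 each), or 1.75-fold, with a limma adjusted p of 0.497 and a two-sided exact permutation p of 0.0361 before adjustment.

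The second Timp1 probe set, rc_AI169327_g_at, was made from the same expressed sequence and may share probes with the first. It had 45, 1642 and 6287 in ipsilateral cortex at 24 h, against 54, 219 and 576 on the contralateral side. Arrays 35 to 40 were above every contralateral array, array 34 was within their range, and array 33 was under the floor. The sides differed by 2.18 on the log2 scale (SE 0.60), or 4.52-fold, with a limma adjusted p of 0.145. The two-sided exact permutation p was 0.00684 before adjustment and 0.409 after. Only 5 of 8 contralateral arrays at 24 h and 4 of 8 at 4 h exceeded the floor on this probe set, so its folds between the sides depend on that floor. It passed the threshold without array 33 (adjusted p 0.0295) and with array weights (2.24, adjusted p 0.0353), and under no other alternative. Over 47 arrays the 2 probe sets correlated at r = 0.81.

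**Figure D4:**
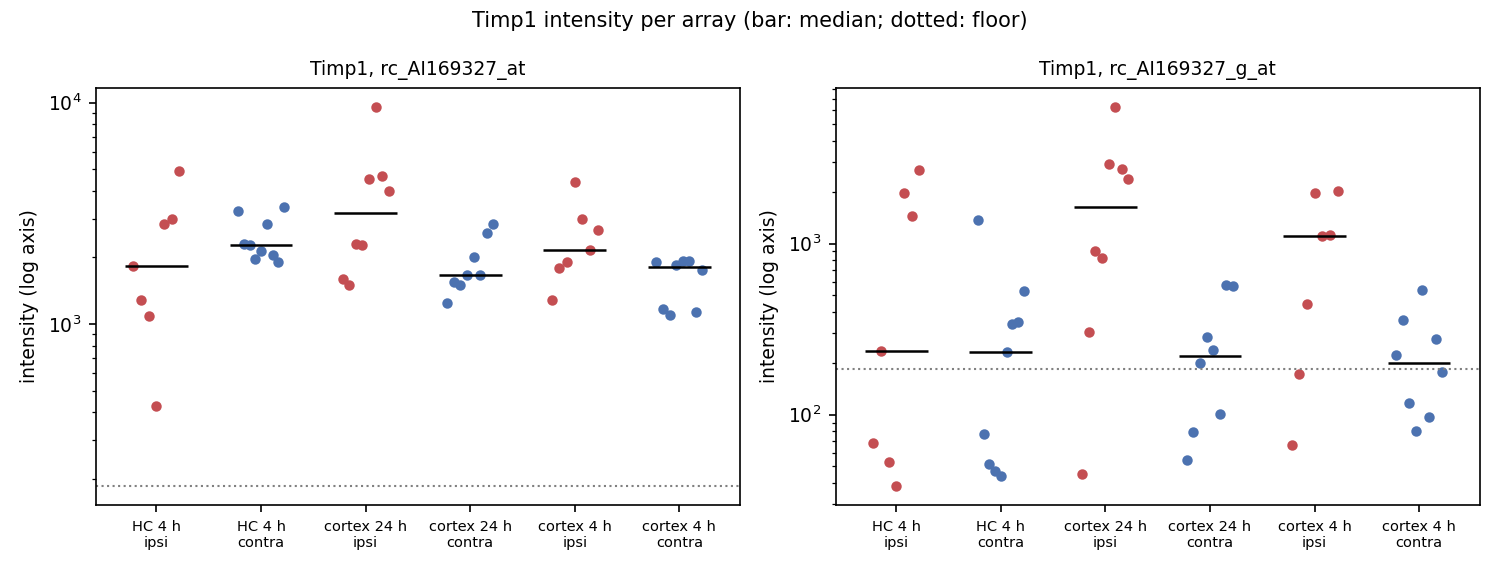
Intensity of the 2 Timp1 probe sets on each array (log axis), with ipsilateral arrays in red, contralateral arrays in blue, a bar at each group's median and a dotted line at the floor. In each ipsilateral group at least 1 array stands above all contralateral arrays while the rest lie among or below them.

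The same 4 arrays that were highest for Timp1 in cortex at 24 h also had the highest sums of microglia and macrophage markers. Over the 11 of 13 listed markers on the array (Csf1r above the floor on 3 arrays), arrays 37 to 40 summed to 18483 or more, with a highest sum of 23899, and the other ipsilateral arrays to 9592 to 10800. The contralateral arrays summed to 8072 to 13193. Of the 10 markers tested 0 were called between these sides, where 0.107% of all probe sets were. The part of these cells in the Timp1 values was not tested. Lgals3, a macrophage lectin of that list, was also the gene most like Timp1 over all arrays.

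In cortex at 4 h the picture was alike in form and smaller. rc_AI169327_at had 1288, 2153 and 4406 on the ipsilateral side, against 1102, 1803 and 1930 on the contralateral side, and the log2 difference was 0.57 (SE 0.33, n = 7 and 8, limma adjusted p 0.745). rc_AI169327_g_at had 66, 1110 and 2022, against 80, 200 and 537. Its difference was 1.49 (SE 0.62, 2.80-fold, limma adjusted p 0.596), with a two-sided exact permutation p of 0.0263 before adjustment that did not pass after it. On both probe sets arrays 5 to 8 were above every contralateral array and arrays 1, 3 and 4 were not. On arrays 5 to 8 the sum over the 6 of 8 listed erythroid and plasma markers on the array was 58312 to 99397, against at most 53958 on the other ipsilateral arrays and 54742 on the contralateral ones. That sum is mostly Hbb, a haemoglobin chain with a mean log2 level of 15.45 against 11.48 or less for the others. The mean log2 deviation over the whole list was 0.51, 0.16, 0.15 and -0.16 on arrays 5 to 8, which overlapped the contralateral range of -0.43 to 0.43. Of the 5 markers tested 0 were called between these sides, where 0% of all probe sets were. At 24 h no ipsilateral array exceeded the contralateral ones on this list (highest 64072 against 68300). On the microglia and macrophage list at 4 h array 6 alone, at 14401, exceeded the highest contralateral sum of 12988. All marker lists were compared in this way, and the list given beside Timp1 differs between the times. The part of blood in the result was not tested. The difference between sides did not change by a call between 24 h and 4 h, with log2 values of 0.24 and 0.69 for the 2 probe sets.

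In hippocampus at 4 h the Timp1 probe sets disagreed in sign. rc_AI169327_at had 425, 1830 and 4926 on the ipsilateral side, against 1904, 2280 and 3386 on the contralateral side, with array 24 above and arrays 17 to 20 below every contralateral array. Its log2 difference was -0.48 (SE 0.32, limma adjusted p 0.306), and 0.12 with the 10th percentile as covariate. rc_AI169327_g_at had 38, 235 and 2706, against 44, 233 and 1369, with arrays 21, 22 and 24 above every contralateral array and a difference of 0.79 (SE 0.61, limma adjusted p 0.379). The contralateral value of 1369 was array 23, and without it the difference was 1.06 (adjusted p 0.228). Array 24 also had the highest erythroid and plasma sum, 61708 against at most 54014 on the contralateral side, but its mean log2 deviation over that list was -0.11, within the contralateral range of -0.19 to 0.32. The part of blood in this value was not tested.

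In the order of mean log2 levels, rc_AI169327_at was highest in ipsilateral cortex at 24 h (11.63 ± 0.91) and lowest in contralateral cortex at 4 h (10.60 ± 0.38), and no neighbours among the 6 groups differed beyond their SD. On the contralateral side at 4 h, hippocampus was above cortex by 0.64 (SE 0.31) with a limma adjusted p of 0.11, although 8 of 9 hippocampal arrays were above every cortical array. This difference passed the threshold with only the compared arrays in the fit (adjusted p 0.00471) and by the exact permutation test (adjusted p 0.00247).

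By comparison, the members' counts stand beside those over all probe sets as follows. Between sides, 0 of 17 member probe sets were called by limma in cortex at 24 h and 0 of 17 at 4 h, where 0.107% and 0% of all 7503 were called. At an unadjusted limma p under 0.05 these counts were 2 and 1 of 17, where 575 and 558 of all 7503 passed. By the exact permutation test after adjustment the member counts were 0 and 0, and the share over all probe sets is not given for that test. At 24 h 14 of the 17 log2 differences were positive, with a median of 0.16 against -0.02 over all probe sets. At 4 h 8 were positive, with a median of -0.01. Probe sets of a gene are not independent of each other.

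In hippocampus 1 of 17 member probe sets was higher and 2 were lower on the ipsilateral side, against 16.1% of all probe sets called, 5.32% higher and 10.8% lower. The members' median was -0.21, against -0.04 over all. The change of the side difference with time was called for 0 of 17, against 0% of all. None of the 17 had an unadjusted limma p under 0.05, where 421 of all 7503 did. The change of the side difference with region was called for 0 of 17, against 4.18% of all. At an unadjusted limma p under 0.05 there were 3 of 17, where 1585 of all 7503 passed.

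**Figure D5:**
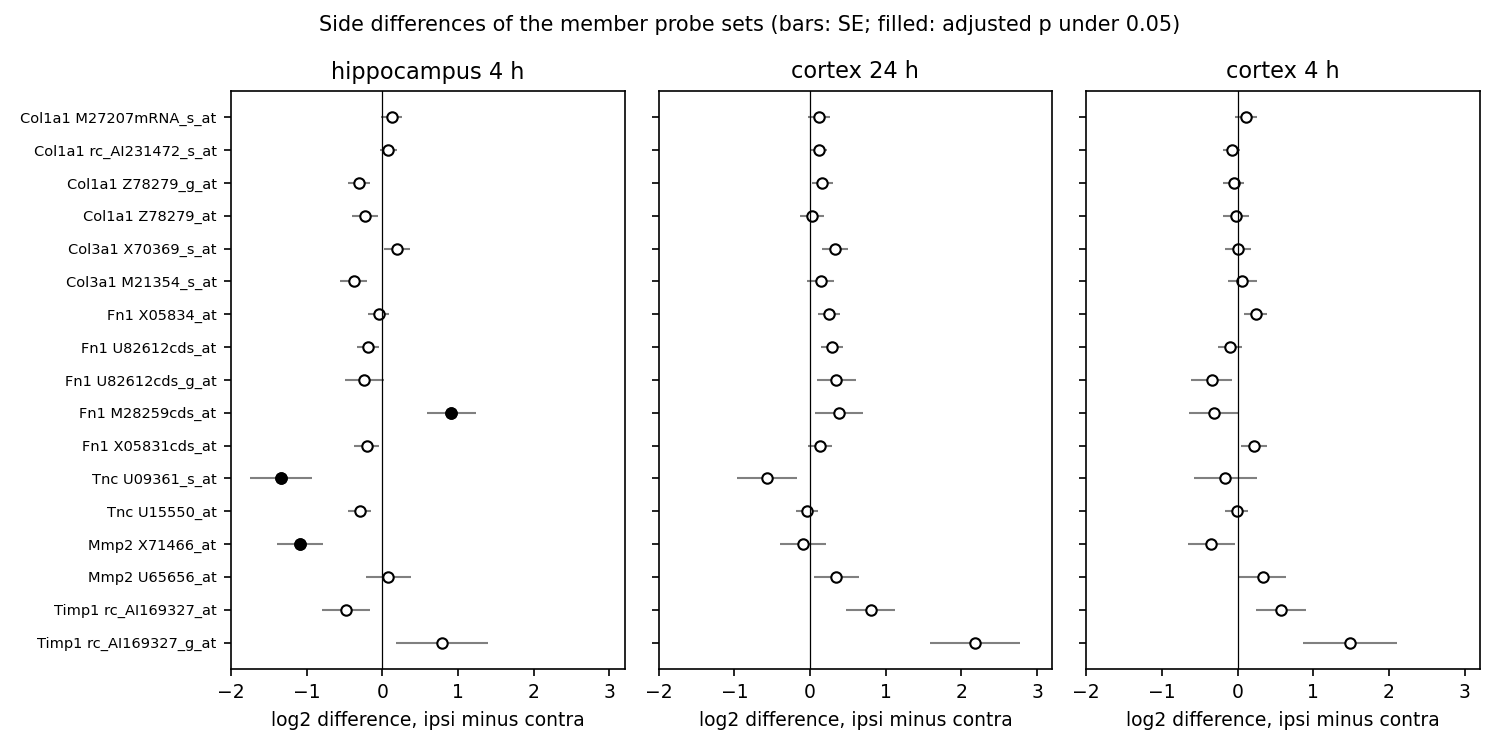
Log2 difference, ipsilateral minus contralateral, with its SE for each of the 17 tested member probe sets in hippocampus at 4 h, cortex at 24 h and cortex at 4 h, filled where the limma adjusted p is under 0.05. The 3 filled points are all in hippocampus: Fn1 (M28259cds_at) at 0.91, Mmp2 (X71466_at) at -1.09 and Tnc (U09361_s_at) at -1.34.

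For time, 4 of 17 member probe sets were higher at 24 h than at 4 h in ipsilateral cortex and 0 lower, where 19.3% of all were called and 11.4% were higher. In contralateral cortex 1 of 17 was higher and 0 lower, where 21.5% were called and 13.2% were higher. These comparisons share no arrays, and M27207mRNA_s_at of Col1a1 was called in both. For region, 2 of 17 were higher in hippocampus than in cortex on the ipsilateral side, against 27.5% of all called and 16.7% higher, and 4 of 17 on the contralateral side, against 33.7% called and 22.3% higher. On the contralateral side the median over all probe sets was itself 0.11 above 0 and fell to 0.01 after quantile normalization. In that setting 1 of 17 member probe sets was called, where 2041 of all 7472 tested were.

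The genes whose deviations from the group means were most like each member's are given over 47 arrays, which share hybridisation and dissection. For Timp1 they were Lgals3 (r = 0.79), Hspb1, a small heat shock protein (0.78), and Ifitm3, an interferon-induced membrane protein (0.78). Fn1 came closest to the acute-phase serpin Serpina3n (0.74), the haem-degrading enzyme Hmox1 (0.72) and the tropomyosin Tpm3 (0.69). Between the members themselves, X05834_at of Fn1 and the Timp1 probe sets had r of 0.63 and 0.67, while M27207mRNA_s_at of Col1a1 had r of -0.11 and -0.18 with them.

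For Col3a1 the nearest genes were the prostaglandin D synthase Ptgds (0.69), Col1a1 on rc_AI231472_s_at (0.63) and Col1a2, the partner chain of type I collagen (0.59). For Col1a1 on M27207mRNA_s_at they were Hprt1 (0.65), a purine salvage enzyme, the catalase gene Cat (0.64) and the tubulin Tubb5 (0.64). Tnc was nearest to Acot7 (0.71), Pax8 (0.70) and Fev (0.69), and Mmp2 to Il1r1 (0.62), Gtf2a1 (0.60) and Phkg1 (0.56). The nearest genes of Col1a1, Tnc and Mmp2 therefore included no other collagen, matrix protein or protease.

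Around the members, 100 further genes of the matrix were tested, in 10 lists of collagens, glycoproteins, proteoglycans, proteases, inhibitors, processing enzymes, receptors and growth factors. Between sides in cortex at 24 h 1 of 100 was called by limma, Spp1, which encodes osteopontin, a glycoprotein that macrophages secrete. It was higher on the ipsilateral side by 2.59 (SE 0.58, 6.02-fold, adjusted p 0.0498). Over all probe sets 0.107% were called there, and 0.0498 was the smallest adjusted p. The Spp1 call was lost with no filter and with only the compared arrays, where 0 probe sets were called. It was also lost without array 37, 38, 39, 40, 42, 43, 44, 45, 46 or 48, again with 0 called. At 4 h 0 of 100 were called, and 7 had an unadjusted limma p under 0.05, where 558 of all 7503 probe sets did.

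In hippocampus 2 of the 100 were higher on the ipsilateral side and 9 lower, which is 11% called, against 16.1% of all probe sets (5.32% higher and 10.8% lower). Both higher genes belonged to the plasminogen system: Plat, tissue plasminogen activator, by 0.43 (SE 0.15, limma adjusted p 0.0446), and the protease nexin Serpine2 by 0.31 (SE 0.10, adjusted p 0.0355). The lower genes included the collagens Col15a1 (-0.81, SE 0.26) and Col5a1 (-0.55, SE 0.15), the laminin Lamb2 (-0.55, SE 0.15), the metalloproteinase Mmp7 (-1.08, SE 0.26) and the collagen receptor Ddr1 (-0.71, SE 0.15). Pcolce, which helps trim procollagen, was lower too (-0.51, SE 0.16), as were Pdgfrb, a receptor for platelet-derived growth factor (-0.88, SE 0.30), Tgfb3 (-0.78, SE 0.27) and Ltbp1, which binds latent TGF-beta (-0.57, SE 0.17). The limma adjusted p of these 9 genes were 0.00186 to 0.0398. With the 10th percentile of intensity as covariate, 5 of all 7503 probe sets were called between these sides. Of 13 metalloproteinases tested beside Mmp2 only Mmp7 was called, and of 3 inhibitors tested beside Timp1 none was.

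For time in ipsilateral cortex 12 of the 100 were higher at 24 h and 5 lower, 17% called, against 19.3% of all probe sets. Of the collagens 1 of 6 was called, Col1a2, higher by 0.48 (SE 0.14, limma adjusted p 0.0132), and of the 5 genes of the plasminogen and serpin list 1, the collagen chaperone Serpinh1, higher by 0.60 (SE 0.14, adjusted p 0.00119). Of the 7 collagen processing genes 2 were called, the prolyl hydroxylase chains P4ha1, higher by 0.65 (SE 0.16), and P4hb, higher by 0.34 (SE 0.09). Mmp14, the membrane protease that activates Mmp2, was higher by 0.61 (SE 0.20), Adam10 by 0.61 (SE 0.13) and the protease inhibitor A2m by 0.92 (SE 0.26). Smad7, an inhibitor of TGF-beta signalling, had the largest difference of the called genes at 1.46 (SE 0.30, 2.74-fold, adjusted p 0.00042). The lower genes were Sparc, Agrn, Sdc4, Ccn1 and Pdgfa, with differences of -0.69 to -0.28.

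In contralateral cortex 12 were higher at 24 h and 7 lower, 19% called, against 21.5% of all probe sets. Col1a2 (0.39, SE 0.14, limma adjusted p 0.0391), Serpinh1 (0.43, SE 0.13), P4hb (0.33, SE 0.09), Adam10 (0.48, SE 0.13) and Smad7 (1.30, SE 0.29) were higher on this side too. P4ha1, Mmp14 and A2m were called on the ipsilateral side alone, but no gene of the lists was called for a change of the side difference with time. For that change 3 of 100 had an unadjusted limma p under 0.05, where 421 of all 7503 probe sets did.

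Between regions, 21 of the 100 were higher and 6 lower in ipsilateral hippocampus than in ipsilateral cortex, 27% called against 27.5% of all probe sets, and 30 higher and 6 lower on the contralateral side, 36% called against 33.7%. Of the 17 proteoglycan genes, 10 were higher in hippocampus ipsilaterally and 8 contralaterally, and none lower, where 16.7% and 22.3% of all probe sets were higher. Among them were Dcn, which encodes decorin and also stands in the fibroblast, mural and meningeal marker list (1.76, SE 0.41, and 1.34, SE 0.37, on the ipsilateral and contralateral sides), and Ptprz1, a receptor phosphatase with a proteoglycan form (1.18, SE 0.14, and 0.79, SE 0.13). For the change of the side difference with region, Serpine2 was called at 0.52 (SE 0.15) and Ddr1 at -0.89 (SE 0.22).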

How the data were processed

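RNA of 47 samples was hybridised to one-colour oligonucleotide arrays. The authors deposited 1 linear intensity per probe set, and how these were summarised and scaled is not given in the sources used here. After removing the highest and lowest 2% of values, array means lay between 2503 and 2504. Annotation of the platform names 1 gene for 7018 probe sets, several for 308 and none for 1473. Coordinates and the promoter are from RefSeq (GRCr8), which held promoters for 2 of the 6 members.

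From these, 59 control probe sets were left out, intensities were floored and put on the log2 scale, and the 7503 probe sets that exceeded the floor on 7 or more arrays were tested in R 4.3.3 with limma 3.58.1 (means of 6 groups, trended eBayes, 9 comparisons), which was tested on simulated data. The number of arrays limits the precision. Exact permutation tests on single probe sets were two-sided. The members, gene lists and tests were chosen with earlier results of these data known. Named were all member probe sets, up to 3 called genes with the largest change per list and comparison (the probe set of highest mean for each), and the 3 genes most like each member. Alternatives were a floor at the 10th percentile, no filter, quantile normalization, the 10th percentile of each array as covariate, array weights, only the compared arrays, the exact test, and leaving out each array.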

Additional observations from a re-analysis of the deposited data

Results flagged for a closer look

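Within each group of 7 to 9 arrays, the highest or lowest array was set against its neighbour by Dixon's test on the log2 values, for 102 sets of arrays of the tested member probe sets. Chance marks about 1 in 20, or 5.1 of 102, and 6 were marked. Col1a1 on Z78279_g_at had 1618 on array 30 of contralateral hippocampus, below a next value of 2559. Fn1 on M28259cds_at had 547 on array 8 of ipsilateral cortex at 4 h, with every other array of that group under the floor. Fn1 on X05831cds_at had 481 on array 6 of ipsilateral cortex at 4 h, above 209, and 285 on array 45 of contralateral cortex at 24 h, also above 209. Tnc on U15550_at had 272 on array 18 of ipsilateral hippocampus and 235 on array 45 of contralateral cortex at 24 h, with every other array of those groups under the floor. In 5 of the 6 cases the marked array was a dim probe set's highest value, and the test was made on floored values.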

How the results depend on the processing

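No paired analysis was possible because each array number occurs once and the labels give no number shared between groups. The Col1a1 calls on M27207mRNA_s_at for time and region held under all alternatives; of the 14 member calls 5 held under all, and of 139 member results without a call 129 stayed so. No called difference changed sign.

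Probe sets called between sides in cortex at 4 h were 0 as reported, 5 with the lower floor, 1 after quantile normalization, 2 with the covariate and 0 to 2 when each array was left out. At 24 h they were 8 as reported, 0 without the filter, 13 with the covariate, 38 with array weights, 0 with only the compared arrays and 0 to 26 when each was left out. The member count there was 0, 1 with array weights and 0 to 1 when each was left out, the 1 being Timp1 on rc_AI169327_g_at without array 33. In hippocampus 1207 were called, 5 with the covariate, 1881 with array weights and 799 to 1446 when each was left out, lowest without array 21. Of the 3 member calls there, 0 remained with the covariate and 1 to 4 were counted when each was left out, 1 without array 20. For region on the contralateral side the 4 member calls were 1 after quantile normalization, where 2041 of all 7472 probe sets were called. They were 2 with the covariate and 3 to 6 when each was left out. The change of the side difference with time had 0 calls and 1 with the lower floor. Its change with region had 314, 1 with the covariate, 64 with only the compared arrays and 135 to 508 when each was left out, with 0 to 1 member calls, the 1 being Fn1 on M28259cds_at without array 8 (1.44, adjusted p 0.0423). The causes were not tested. Quantile normalization moved the share of calls that were higher to 46.2% from 33.1% for the hippocampal sides, to 51.1% from 61.6% for time on the contralateral side, to 49.3% from 66.2% for region on the contralateral side and to 36.7% from 25.8% for the change with region. Intensities under the floor have no order, which limits Tnc on U15550_at, Fn1 on M28259cds_at and X05831cds_at, and Timp1 on rc_AI169327_g_at.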
